A study of Mus musculus with 31 samples.

Results

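The genes described here are 37 genes that mark the oligodendrocyte lineage and the myelin it makes, followed in the mouse hippocampus at 5 ages, the youngest 10 days and the oldest 20 months. They were chosen by name: every probe set of the array whose annotated gene symbol was on the list was taken, and the rule used no measured value. Of the 37 genes, 36 had at least 1 probe set of their own, 73 probe sets in all, out of 18193 genes with a probe set of their own on the array. The transferrin gene Trf was measured only by a probe set that it shares with Srprb, and is given no value. Only genes brighter than the array median in 3 mice or more were tested, and 35 of the 36 met this. The homeobox gene Nkx6-2 did so in 2 mice and was not tested.

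Total RNA of the hippocampus was hybridised to 31 single-colour Affymetrix arrays, 1 per mouse. The mice were male, of strain C57BL/6, and were either Glud1 Tg, carrying an added Glud1 gene for the enzyme glutamate dehydrogenase 1 that is expressed in neurons, or age-matched wild type (wt) mice without it. Each genotype was sampled at 10 days, 4.5 months, 9 months, 14.5 months and 20 months, with 3 mice per group and 4 in wt at 10 days. The probe sets of Glud1 lie outside the transgene, so its signal is no check of the genotype labels. The 10 hippocampus markers read alongside were all measured, and their summed signal ran from 14505 to 21081 over the 31 mice. The signal of a whole hippocampus does not tell fewer oligodendrocytes from less RNA per oligodendrocyte, and this holds for every value below.

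Oligodendrocytes are the glial cells that wrap axons of the central nervous system in myelin. They arise from dividing progenitors that carry the PDGF receptor alpha and the NG2 proteoglycan, pass through a premyelinating stage, and then switch on a large set of genes for membrane proteins and lipids that build the sheath. In rodents most of this switch takes place after birth, and a population of progenitors persists in the adult brain. The transcription factors OLIG2 and SOX10 accompany the lineage from early on, and MYRF is needed for the step to myelin production.

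Promoter sequences are printed to show what lies in front of genes at either end of this change. Only members with a single annotated start were considered, and genes of a chromosome set aside beforehand were left out. Among the rest, the 3 with the largest rise and the 3 with the largest fall between 10 days and 4.5 months are shown. Gpr17, Gal3st1 and Olig1 also fell and are not printed. Of those printed, Enpp6 and Cspg4 were called as falling with little margin, as set out below. Each printed sequence is the 250 bases before the RefSeq start on build GRCm38.p6, written 5′ to 3′ on the strand of the gene. Capitals mark matches, on either strand, to ACAAAG or ACAATG (SOX10), CTGGCAC (MYRF), or CAGCTG or CATCTG (OLIG E-boxes).
Mobp, chr9:120149492-120149741, plus strand: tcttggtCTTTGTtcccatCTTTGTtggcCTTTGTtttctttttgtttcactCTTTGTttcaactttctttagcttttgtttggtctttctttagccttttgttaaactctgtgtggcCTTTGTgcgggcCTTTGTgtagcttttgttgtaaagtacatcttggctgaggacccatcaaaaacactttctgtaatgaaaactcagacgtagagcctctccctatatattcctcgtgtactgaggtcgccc
Mog, chr17:37023399-37023648, minus strand: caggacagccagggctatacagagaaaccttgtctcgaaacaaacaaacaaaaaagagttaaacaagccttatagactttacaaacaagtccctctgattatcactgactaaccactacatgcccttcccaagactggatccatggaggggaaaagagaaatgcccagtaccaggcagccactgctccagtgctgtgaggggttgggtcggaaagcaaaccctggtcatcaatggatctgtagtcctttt
Mal, chr2:127656696-127656945, minus strand: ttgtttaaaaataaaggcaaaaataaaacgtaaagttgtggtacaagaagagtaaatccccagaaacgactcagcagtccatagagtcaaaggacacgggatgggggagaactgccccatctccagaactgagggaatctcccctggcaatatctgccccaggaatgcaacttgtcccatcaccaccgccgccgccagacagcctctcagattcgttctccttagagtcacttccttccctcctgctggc
Pdgfra, chr5:75152001-75152250, plus strand: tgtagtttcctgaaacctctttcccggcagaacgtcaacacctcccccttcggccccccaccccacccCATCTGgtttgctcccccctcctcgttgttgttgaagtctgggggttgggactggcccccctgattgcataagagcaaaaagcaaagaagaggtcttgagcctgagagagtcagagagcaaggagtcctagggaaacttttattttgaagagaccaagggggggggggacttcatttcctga
Enpp6, chr8:46986637-46986886, plus strand: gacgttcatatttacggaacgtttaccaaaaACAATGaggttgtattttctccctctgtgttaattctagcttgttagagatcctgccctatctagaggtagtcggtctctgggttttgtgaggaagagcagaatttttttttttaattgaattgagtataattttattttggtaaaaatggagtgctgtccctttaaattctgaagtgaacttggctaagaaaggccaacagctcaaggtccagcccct
Cspg4, chr9:56864854-56865103, plus strand: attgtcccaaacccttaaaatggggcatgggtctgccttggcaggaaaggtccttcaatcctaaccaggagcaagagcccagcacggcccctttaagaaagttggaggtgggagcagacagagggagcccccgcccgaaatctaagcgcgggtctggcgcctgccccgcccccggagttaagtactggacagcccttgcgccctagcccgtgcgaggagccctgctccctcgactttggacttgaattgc

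Mobp held 6 matches to the SOX10 letters, Enpp6 held 1, Pdgfra held 1 to the OLIG letters, and none of the letters searched lay in the windows of Mog, Mal and Cspg4. RefSeq gave such windows for 26 of the 37 genes, 36 windows in all, some of which overlap. The SOX10 letters occurred in 17 of these 36 windows and in 25.2% of 32851 windows of all genes. The MYRF letters occurred in 5 windows, those of Cnp, Hapln2, Lpar1 and Mag, and in 4.19% of all windows. The OLIG letters occurred in 11 windows and in 25.5% of all. These are counts of letters in a window and say nothing about binding.

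The values below are the deposited signals, in arbitrary units that scale with brightness, while every change is a difference of log2 levels after quantile normalization, with its standard error. Each gene is represented by its own probe set with the highest mean. Signals of different genes are not compared, because probe sets differ in brightness. Arrays of a group correlated at r of 0.934 or more. A change was called at an adjusted p under 0.05 from limma, with Benjamini-Hochberg adjustment over all probe sets tested. Of the members, 24 exceeded the array median on all 31 arrays. Mog, Ermn, Gjb1 and Hapln2 did so on 24 arrays, none of them at 10 days, Gjc3 on 12 and Enpp6 on 10, so their lowest signals are close to the background of the array.

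Between 10 days and 4.5 months nearly the whole set of genes moved. Of 35 members tested, 28 rose and 6 fell, against 31.2% of all 12824 genes that rose and 35.5% that fell. All 14 sheath genes rose, by 0.92 to 6.45 on the log2 scale, and so did both gap junction genes. Mog, Ermn, Hapln2, Gjb1 and Gjc3 exceeded the array median on 0 arrays at 10 days. They passed the filter only at the ages where they are high, so their rises are built into these counts and are no support. The members that fell were the progenitor genes Pdgfra and Cspg4, the differentiating-stage genes Gpr17 and Enpp6, the transcription factor Olig1 and the sulfotransferase gene Gal3st1. The median change over members was 1.66, against -0.0411 over all genes.

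**Figure D1:**
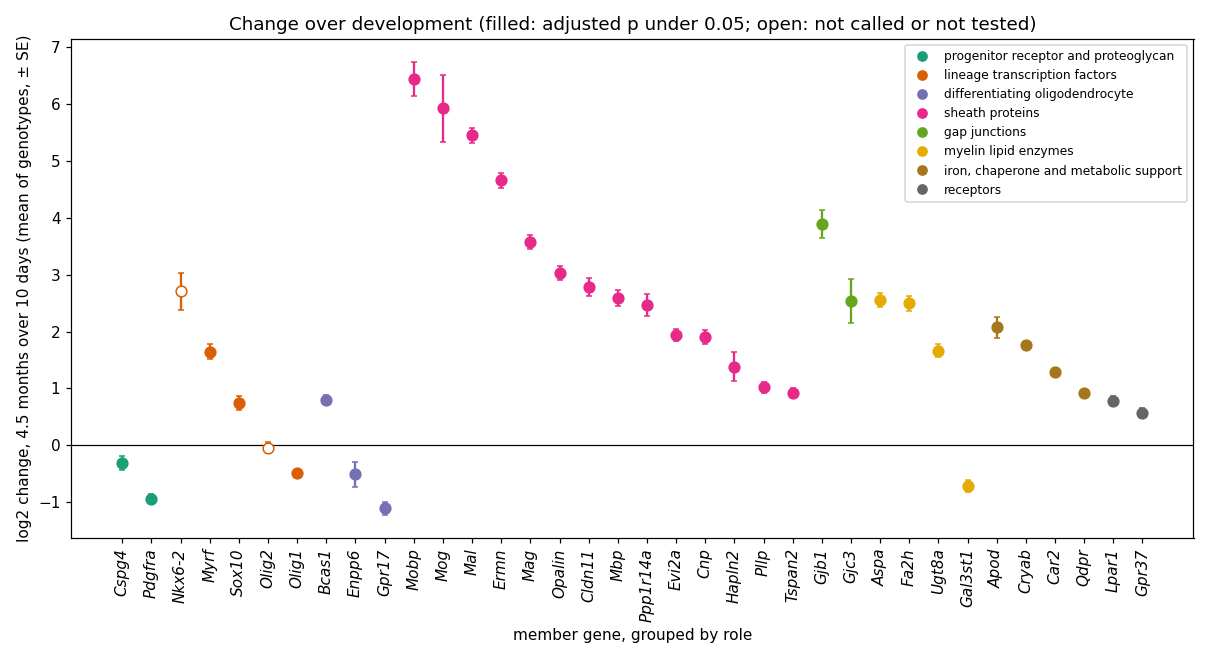
Log2 change between 10 days and 4.5 months (mean of both genotypes) of the 36 measured members, grouped and coloured by role, with bars for ± SE; filled points were called and open points, Olig2 and Nkx6-2, were not called or not tested. The sheath genes reach from 0.92 for Tspan2 to 6.45 for Mobp, and Gpr17, Pdgfra, Gal3st1, Enpp6, Olig1 and Cspg4 lie below 0.

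Among the sheath genes, Mobp, a structural protein of the compact myelin of the central nervous system, had the largest change. Its signal ran from 24.3 to 138 with a median of 119 in the 7 mice at 10 days, and from 5858 to 10308 with a median of 8724 in the 6 mice at 4.5 months, a rise of 6.45 ± 0.30 (adjusted p = 1.5e-14). Mog, a glycoprotein on the outermost face of the sheath, ran from 2.35 to 53.9 at 10 days and from 587 to 854 at 4.5 months, a rise of 5.93 ± 0.58. The 10-day signals of Mog lie in the background, so the size of its change is loosely fixed: with 50 added to every signal it was 3.37, while that of Mobp was 5.82. Mal, a proteolipid that helps sort membrane to the sheath, went from a median of 105 to one of 4777, a rise of 5.46 ± 0.13 (adjusted p = 6.5e-22). In all 3 genes every mouse at 4.5 months exceeded every mouse at 10 days.

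Mbp, which holds the inner faces of the sheath membrane together, had signals at 10 days 3166 to 7663, with a median of 6057. At 4.5 months it ran from 28408 to 35216, a rise of 2.59 ± 0.13 (adjusted p = 6.4e-14). All 8 probe sets of Mbp had higher levels at 4.5 months, by 0.81 to 3.99. Cnp, a phosphodiesterase of the non-compact cytoplasmic channels, rose from a median of 3560.3 to 11618, by 1.90 ± 0.12. Mag, a glycoprotein of the membrane facing the axon, rose from a median of 173 to 2284, by 3.58 ± 0.13 (adjusted p = 2.2e-19). In all 3 genes every mouse of 4.5 months lay above every mouse of 10 days.

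Ermn, a cytoskeletal protein of mature oligodendrocytes, rose from signals of 30.9 to 58 to signals of 1022 to 1525, by 4.66 ± 0.13. Opalin, a membrane glycoprotein of mature oligodendrocytes, rose by 3.03 ± 0.13, and Cldn11, the tight junction claudin of the sheath, by 2.78 ± 0.16. The smallest rises of the sheath group were those of Pllp, at 1.02 ± 0.10, and of the tetraspanin Tspan2, at 0.92 ± 0.08, whose signals at 10 days already ran from 1239.6 to 1530.4. Ppp1r14a, an inhibitor of a protein phosphatase, rose by 2.47 ± 0.20, Evi2a by 1.94 ± 0.11 and Hapln2, a link protein found at nodes of Ranvier, by 1.38 ± 0.26.

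Of the connexin genes of oligodendrocytes, which form gap junctions, Gjb1 rose by 3.89 ± 0.25 and Gjc3 by 2.53 ± 0.40. Both start in the background at 10 days, where Gjb1 ran from 5.11 to 28.2 and Gjc3 from 6.27 to 54.5. With 50 added to the signals the changes were 1.92 and 1.17. Among genes of lipid metabolism, Aspa, which frees acetate from N-acetylaspartate, rose by 2.56 ± 0.12, Fa2h, which makes 2-hydroxy fatty acids of myelin, by 2.49 ± 0.13, and Ugt8a, which makes galactosylceramide, by 1.66 ± 0.12. Gal3st1, which adds sulfate to galactosylceramide to give sulfatide, went the other way. Its signals ran from 307 to 367 at 10 days and from 189 to 255 at 4.5 months, a fall of 0.72 on the log2 scale with SE 0.10 (adjusted p = 2.5e-07), with no overlap. At 9, 14.5 and 20 months its medians were 336, 311 and 305, close to the 10-day median of 336.

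The support genes rose together: Apod, a lipocalin that carries lipids, by 2.07 ± 0.18, the small chaperone Cryab by 1.76 ± 0.08, the carbonic anhydrase Car2 by 1.29 ± 0.06, and Qdpr, which regenerates tetrahydrobiopterin, by 0.91 ± 0.05. The receptors rose less, Lpar1, a receptor for lysophosphatidic acid, by 0.78 ± 0.10 and Gpr37 by 0.57 ± 0.09.

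Genes of the early lineage divided. Pdgfra, the receptor that keeps progenitors dividing, ran from 2431 to 3070.3 at 10 days and from 1087 to 1715 at 4.5 months, a change of -0.95 ± 0.09 (adjusted p = 2.0e-10). Gpr17, a receptor of premyelinating cells, ran from 1067 to 1988 and then from 617 to 722, a change of -1.11 ± 0.11 (adjusted p = 1.2e-09). In both genes every 10-day mouse exceeded every 4.5-month mouse. Olig1 changed by -0.49 ± 0.06 (adjusted p = 6.8e-09), from a median of 6238 to 3926. Between 10 days and 9 months it changed by -0.079, which was not called. Bcas1, also linked to cells that have just begun to make myelin, rose by 0.79 ± 0.09, from a median of 2470.2 to 4266.

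Enpp6, a phosphodiesterase of newly formed oligodendrocytes, and Cspg4, which encodes NG2, were called with less margin. Enpp6 changed by -0.51 ± 0.22 (adjusted p = 0.046) and Cspg4 by -0.31 ± 0.13 (adjusted p = 0.034), and signals of both ages overlapped. Without quantile normalization, neither was called, at -0.18 and -0.16. Cspg4 differed by 0.06 in wt mice alone and by -0.69 ± 0.19 in Tg mice alone, while its other probe set gave -1.13 over both. Leaving out a single mouse ended the call of Enpp6 for 9 of 13 mice, at adjusted p up to 0.171, and that of Cspg4 for 7, at up to 0.135.

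Of the transcription factors, Myrf rose by 1.65 ± 0.13, from signals of 175 to 263 at 10 days to signals of 619.6 to 1013, and Sox10 rose by 0.74 ± 0.12, from a median of 459.9 to 841. Olig2 ran from 725 to 1275 at 10 days and from 739 to 924 at 4.5 months, a difference of -0.04 ± 0.10 (adjusted p = 0.74). It was the only tested member that was not called. Nkx6-2, which was below the filter, ran from 3.75 to 10.8 at 10 days and from 20.3 to 87.4 at 4.5 months, and without the filter its difference was 2.71 ± 0.33. Levels at 10 days and 4.5 months overlapped in Olig2, Cspg4 and Enpp6. The share of all genes without overlap between these ages was not counted, so a lack of overlap is not read as particular to the members.

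**Figure D2:**
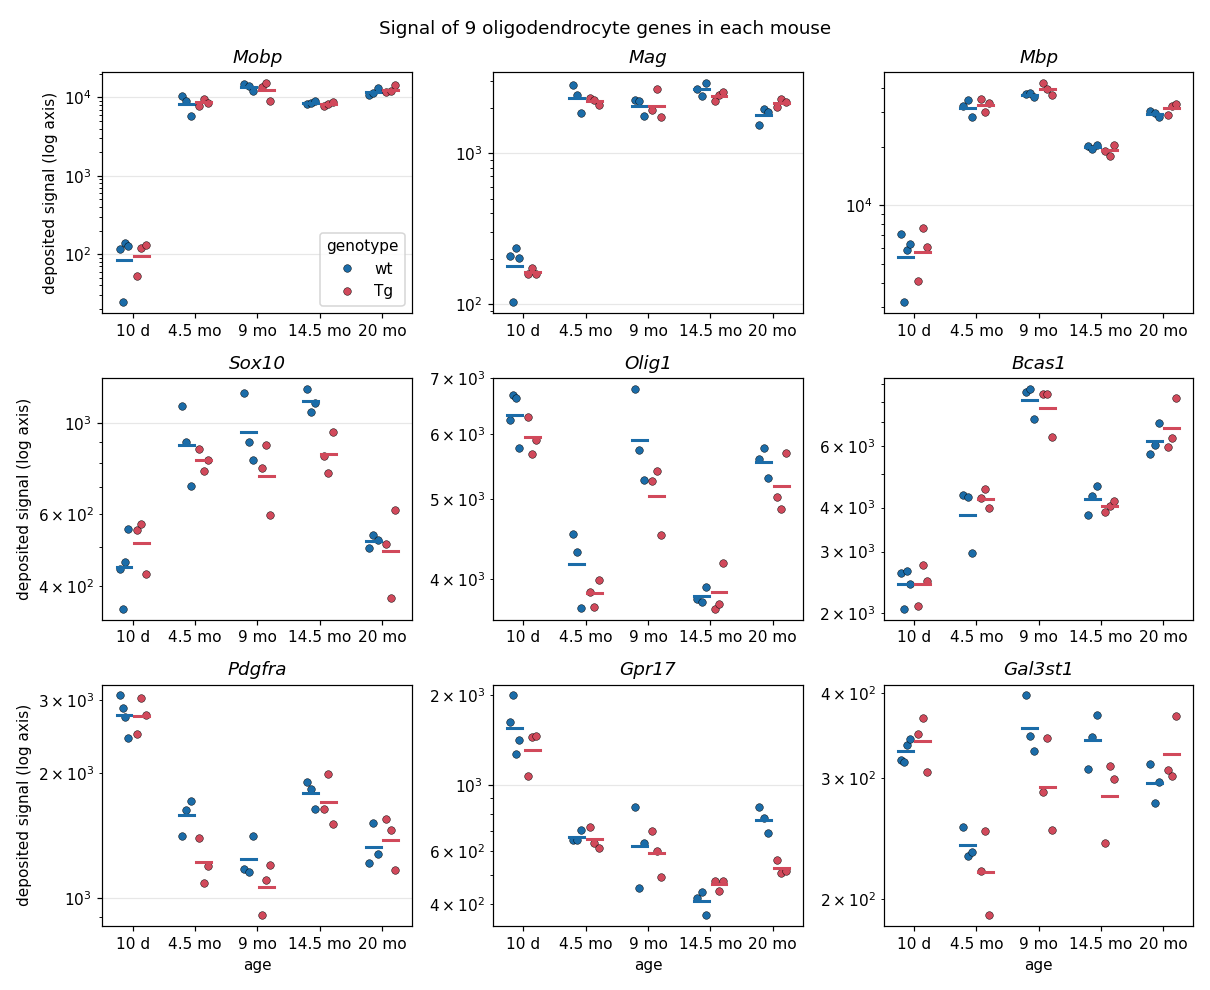
Deposited signal (log axis) of 9 members in each of the 31 mice by age, wt in blue and Tg in red, with a horizontal bar at the geometric mean of each group. Mobp, Mag and Mbp at 10 days lie far below all later ages, Pdgfra and Gpr17 at 10 days lie above them, Bcas1 is high at 9 and 20 months, and Sox10 at 20 months falls back to 375 to 614.

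The counts were much the same in other cuts of the data. In wt mice alone 28 members rose and 5 fell, against 26.3% and 30% of all genes, and in Tg mice alone 28 rose and 5 fell, against 25.7% and 27.5%. With 9 months in place of 4.5 months 28 rose and 5 fell, against 29.7% and 37.4%. The members were not all the same there: Olig1, at -0.079 (adjusted p = 0.212), and Gal3st1, at -0.20 (adjusted p = 0.0752), were no longer called. Without the filter on low values, 29 of 36 members rose and 4 fell, against 22% and 26.1%. Of the 63 member probe sets that passed the filter, 53 rose and 6 fell in the fit without it, against 30.8% and 30% of all such probe sets, and no member had tested probe sets that differed in sign. An F-test over the 5 ages called all 35 members in wt mice and all 35 in Tg mice, where 66.2% of all genes were called in both. The largest adjusted p was 0.0338 for Olig2 in wt and 0.0459 for Enpp6 in Tg.

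Other genes of the lineage, and genes of processes that accompany myelination, were read from lists. Of 36 other mature oligodendrocyte genes tested, 30 rose and 3 fell between 10 days and 4.5 months, with a median of 0.876. Il33, a nuclear cytokine present in many mature oligodendrocytes, rose by 2.94 and Lgi3 by 2.04, while Elovl1, which elongates very long fatty acids, changed by -0.28. Of 12 other progenitor genes, 2 rose and 8 fell, among them Lhfpl3 at -1.45 and the proteoglycan Vcan at -1.36. Of 13 other differentiating-stage genes, 3 rose and 7 fell, with Rras2 at -1.71. Genes of proliferation fell in all 8 of 8 tested. Of these, Mki67, Cdk1, Top2a, Birc5 and Plk1 each exceeded the array median on 7 of 31 arrays, the number of mice at 10 days. A gene that passes the filter only at its high age has a fall built in, so this count is no support.

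Of 18 genes of cholesterol synthesis, the pathway that supplies a major lipid of myelin, 17 fell and 1 rose. Fdps, a synthase of farnesyl diphosphate, changed by -2.15, Sqle, the squalene epoxidase, by -1.57 and Hmgcs1 by -1.27. Many cells besides oligodendrocytes use this pathway. Of 11 axonal or glial genes of the node and paranode, 8 rose and 2 fell, with Cntnap1, the axonal partner of the paranodal loop, up by 3.04 and Sptbn4, the spectrin of the node, by 1.48. Markers of other cell types moved as well: 7 of 10 astrocyte, 7 of 9 microglia and 7 of 10 neuron markers rose, and 5 of 7 pericyte markers fell. The summed signal of 10 astrocyte markers ran from 56693 to 62989 at 10 days and from 76830 to 87081 at 4.5 months, and that of 10 neuron markers from 86949 to 97509 and from 120727 to 132624. The part of these other cell types in the member changes was not tested.

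In the adult no difference of a tested member between ages exceeded 1.10 in size on the log2 scale, and those of several members, among them Bcas1, Olig1, Cryab and Lpar1, changed sign from step to step. From 4.5 to 9 months there were 14 members that rose and 4 that fell, against 20.7% and 24.3% of all genes. The step from 9 to 14.5 months gave 8 rises and 9 falls, against 26.4% and 21.9%, and the step from 14.5 to 20 months gave 7 rises and 5 falls, against 18.4% and 15.3%. These comparisons share mice with their neighbours, so a high or low age enters both. Without the third Tg mouse of 9 months, the middle step gave 3 rises and 10 falls. It gave 5 rises without the third wt mouse of 9 months, the second Tg mouse of 14.5 months or the third wt mouse of that age.

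**Figure D3:**
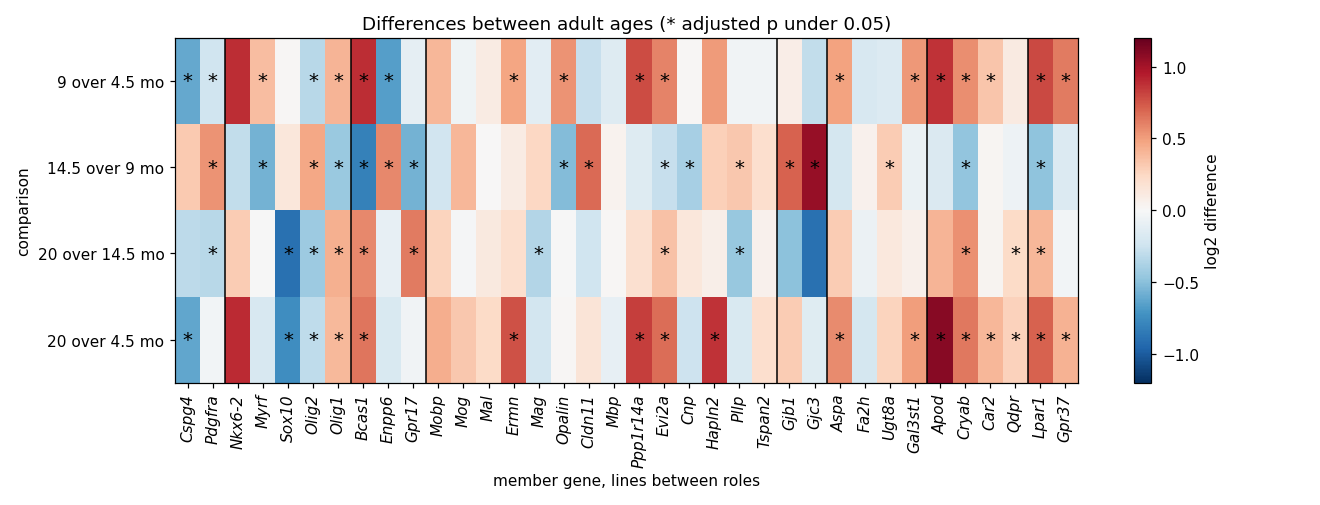
Log2 difference between adult ages (mean of both genotypes, colour scale) for each of the 36 measured members, with black lines between roles and an asterisk where the difference was called. Bcas1, Olig1, Cryab and Lpar1 change sign from each step to the next with every step called, Sox10 is at -0.89 from 14.5 to 20 months, and Mobp, Mal and Mbp carry no asterisk.

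Bcas1 had the clearest such course. Its signals ran from 2963 to 4507 at 4.5 months, from 6362 to 8688 at 9 months, from 3805 to 4605 at 14.5 months and from 5696 to 8177 at 20 months. It rose by 0.88 ± 0.09 (adjusted p = 1.9e-08), fell by 0.81 (adjusted p = 7.4e-08) and rose by 0.57 (adjusted p = 2.9e-05), with no overlap between neighbouring ages. Lpar1 followed the same order, with medians of 958, 1679, 1249 and 1648 and changes of 0.79, -0.48 and 0.40. Its 3 probe sets did not share the second of these, at -0.48, 0.02 and -0.34. Olig1 gave medians of 3926, 5341, 3773 and 5446 and changes of 0.41, -0.45 and 0.42, all called, and Cryab changes of 0.56, -0.47 and 0.54, all called.

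Pdgfra and Olig2 ran opposite. Pdgfra had medians of 1406, 1167, 1733 and 1366, with changes of -0.24 ± 0.09 (adjusted p = 0.036), 0.54 ± 0.09 (adjusted p = 1.8e-05) and -0.33 ± 0.09 (adjusted p = 0.0057). The first of these calls ended when any of 6 mice was left out, at adjusted p up to 0.12, and there its 3 probe sets differed in sign, at -0.24, 0.31 and 0.13. Olig2 had changes of -0.33, 0.46 and -0.43, all called. Gpr17 changed by -0.10 ± 0.12 between 4.5 and 9 months, which was not called, then by -0.56 and 0.63, which were.

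Control probe sets of the arrays also differed between ages. The log2 3′ to 5′ ratio of the Gapdh control was -0.078 to 0.018 at 4.5 months and -0.463 to -0.14 at the other ages, and that of the actin control was 0.709 to 0.963 at 9 months and 0.315 to 0.552 elsewhere. The brightest probe set of an array gave 49134 to 57995 at 9 months and 22626 to 26606 at 14.5 months. Their part in the adult changes was not tested, and array handling by age cannot be told apart from age.

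The low top of the scale at 14.5 months touches the brightest members. Mbp ran from 35907 to 42554 at 9 months, from 17848 to 20486 at 14.5 months and from 28445 to 33098 at 20 months, so that the deposited signals of 14.5 months lay below both neighbours in every mouse. On the deposited scale this is a change of -0.97 (adjusted p = 4.94e-06) followed by one of 0.64. After quantile normalization the changes were 0.04 and 0.02, and neither was called. Mbp is among the brightest probe sets of the adult arrays, whose maximum was 22626 to 26606 at 14.5 months. Quantile normalization gives the top ranks nearly the same level on each array, so it could hardly show an adult change of Mbp. The median change of the 500 brightest genes between 9 and 14.5 months was -0.339 on the deposited scale and 0.0175 after normalization. Qdpr, at -0.49 against -0.06, and Car2, at -0.25 against 0.03, behaved in the same way. On the deposited scale the step from 9 to 14.5 months gave 7 rises and 11 falls among members, against 25.4% and 20.3% of all genes. There the step from 14.5 to 20 months gave 11 rises and 5 falls, against 16.7% and 17.1%.

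Mobp, Mal and Mog were not called in any step between successive adult ages. Mobp had medians of 8724, 13741, 8491 and 11871 from 4.5 to 20 months, with changes of 0.40, -0.23 and 0.27. Mal had medians of 4777, 5957, 5085 and 5933 with changes of at most 0.12. Mag was called once, at -0.35 ± 0.13 between 14.5 and 20 months (adjusted p = 0.039), a call that ended when any of 7 mice was left out, at adjusted p up to 0.107. The standard error of Mog between adult ages was 0.60, from a spread pooled over all 10 groups. Its log2 levels had an SD of 2.0 at 10 days and of 0.12 to 0.51 at the adult ages. The pooled error is thus wide for the adult ages, and the missing calls of Mog allow no statement on small changes. Mobp shares this limit, with an SD of 0.93 at 10 days and of 0.11 to 0.30 later.

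Probe sets of Mbp and Cnp did not agree in the adult. Between 4.5 and 9 months the 8 probe sets of Mbp ran from -0.87 to 1.19, both ends called in the fit without a filter. The 3 of Cnp gave 0.01, -0.16 and 0.99 in the same comparison and -0.40, 0.34 and 0.22 in the next, where the -0.40 of the brightest was called. Counted by probe set in that fit, 24 of 63 rose and 5 fell between 4.5 and 9 months, against 19.8% and 22% of all such probe sets. The next step gave 8 rises and 11 falls, against 26.2% and 21.8%, and the last 10 rises and 8 falls, against 15.7% and 13.9%.

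Between 4.5 and 20 months 14 members rose and 3 fell, against 22.5% and 19.9% of all genes. The 4 support genes tested and both receptors rose. Apod rose most, by 1.10 ± 0.19 (adjusted p = 5.7e-05): its signals ran from 3092 to 5433 at 4.5 months and from 5985 to 10109 at 20 months, without overlap. Hapln2 rose by 0.87 ± 0.27 (adjusted p = 0.011), Ppp1r14a by 0.83 ± 0.20 (adjusted p = 0.0015), Ermn by 0.77 ± 0.14, Lpar1 by 0.71 ± 0.10, Evi2a by 0.67 ± 0.11, Bcas1 by 0.65 ± 0.10 and Cryab by 0.63 ± 0.08. Of the 14 genes grouped here as sheath genes 4 rose, Ermn, Ppp1r14a, Hapln2 and Evi2a, and 10 were not called. Those 10 were Mbp, Mobp, Mog, Mag, Mal, Cnp, Cldn11, Opalin, Tspan2 and Pllp. Mbp was at -0.10 ± 0.14, but quantile normalization holds its adult level nearly fixed.

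Sox10 fell by 0.74 on the log2 scale with SE 0.13 (adjusted p = 2.9e-05). Its signals ran from 703 to 1101 at 4.5 months and from 375 to 614 at 20 months, without overlap. Most of this lay after 14.5 months, when the signals were still 756 to 1211, a change of -0.89 ± 0.13 (adjusted p = 3.0e-06), and its other 2 probe sets gave -0.48 and -1.15. Cspg4, at -0.62 ± 0.13, and Olig2, at -0.30 ± 0.11, were the others that fell, and the call of Olig2 ended when any of 4 mice was left out, at adjusted p up to 0.0923. In wt mice alone 13 rose and 2 fell, against 15.8% and 15.4%, and in Tg mice alone 13 rose and 1 fell, against 12.1% and 12.7%. Some members called over both genotypes were not called in 1 of them. In Tg mice alone these were Cspg4 at -0.32 (adjusted p = 0.24), Hapln2 at 0.62 (adjusted p = 0.27) and Olig2 at -0.35 (adjusted p = 0.0997). In wt mice alone they were Olig2 at -0.25 (adjusted p = 0.237) and Gpr37 at 0.31 (adjusted p = 0.0867). Olig2 was thus called in neither genotype alone.

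Read from 9 months, the picture differed. Between 9 and 20 months 4 members rose and 4 fell, against 21.7% and 17.9% of all genes. Those that rose were Qdpr, Tspan2, Cldn11 at 0.44 and Ugt8a at 0.44, and those that fell were Sox10 at -0.76, Myrf at -0.57, Opalin at -0.52 and Bcas1 at -0.24. Sox10 was thus lower at 20 months than at each of 4.5, 9 and 14.5 months, whereas Bcas1 was higher than at 4.5 months and lower than at 9. Over 4.5 to 20 months the lists gave 14 of 36 other mature oligodendrocyte genes that rose and 4 that fell, with Anln, a cytoskeletal protein, at 1.37 and Efnb3 at -0.81. Of 11 node and paranode genes 1 rose and 5 fell, with Cntnap1 at -2.15, Sptbn4 at -1.03 and Nfasc at -1.03. Of 12 other progenitor genes 1 rose and 3 fell, with C1ql1 at -1.75 and Cacng4 at -1.73. Of 18 cholesterol synthesis genes 8 rose and 2 fell.

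Mice of the same age and genotype also differed in these genes together. Each mouse was set against its group mean in the 14 sheath genes. In 13 of 31 mice at least 80% of the 14 lay on the same side of the group mean. These were 1 mouse at 10 days, 4 at 4.5 months, 4 at 9 months, 3 at 14.5 months and 1 at 20 months. Such shifts were not particular to sheath genes. The count was highest for choroid plexus markers, at 25 mice, and leptomeningeal markers, at 22. It was 15 mice for hippocampus, 13 for pericyte, 11 for astrocyte, 10 for striatum and 8 for neuron markers. For endothelium and thalamus markers it was 4 each, for microglia markers 0, and for the other mature oligodendrocyte genes 5. The lists differ in length, and a shorter list reaches 80% more readily. The median deviation of the sheath genes ran from -0.258 to 0.197 at 10 days, from -0.266 to 0.342 at 4.5 months and from -0.339 to 0.275 at 9 months. It ran from -0.115 to 0.106 at 14.5 months and only from -0.0838 to 0.0719 at 20 months. The median over all genes stayed within -0.0169 and 0.0302 in every mouse.

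**Figure D4:**
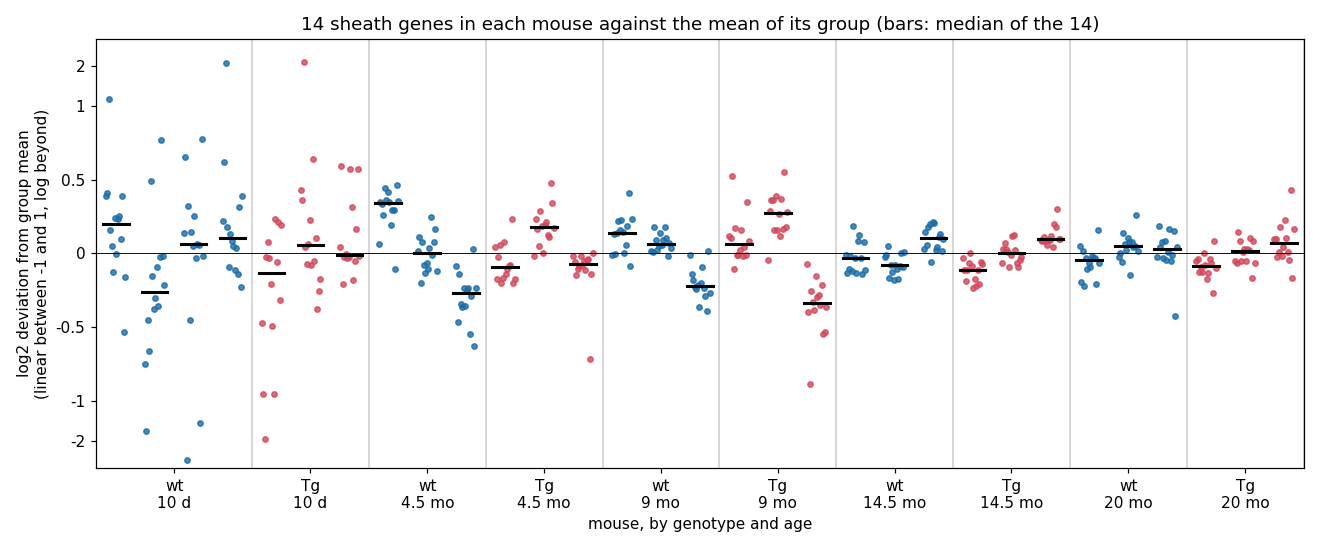
Deviation of each of the 14 sheath genes from its group mean (log2, linear between -1 and 1 and logarithmic beyond) in each of the 31 mice, wt in blue and Tg in red, with a black bar at the median of the 14. At 4.5 and 9 months the points of a mouse shift up or down together, with medians from -0.339 to 0.342, while at 20 months the medians lie between -0.0838 and 0.0719.

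At 4.5 months the first wt mouse had 13 of 14 sheath genes above its group mean and the third had 1 of 14. The third also had the highest summed signal of striatum markers, 5464 against 2287 to 2655 in the other mice of that age, and the lowest of hippocampus markers, 15264 against 18527 to 20979. Of the 10 hippocampus markers 1 lay above the group mean in the third wt mouse, with a median deviation of -0.429, and 8 in the first, with a median of 0.339. At 9 months the second Tg mouse had 13 of 14 above and the third none. The summed signal of choroid plexus markers varied from 959 to 52094 over all mice and that of leptomeningeal markers from 3907 to 16004. The part of these in the deviations was not tested. The deviations of 36 other mature oligodendrocyte genes had medians from -0.196 to 0.206, and those of 12 other progenitor genes from -0.102 to 0.114.

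Between genotypes no member was called at any age by limma. Over all genes 0.0078% were called at 10 days, 0% at 4.5 months, 2.99% at 9 months, 0% at 14.5 months and 0.039% at 20 months. The test of whether the change over development differed by genotype called 0 members and 0% of all genes, and the F-test of genotype by age called 0 members and 0.0624% of all genes, with a smallest adjusted p among members of 0.179, for Cspg4. At an unadjusted p under 0.05, 5 members passed the first of these and 6.75% of all genes did, and 2 passed the second and 8.39% of all genes did. At the same threshold between genotypes, 4 members passed at 10 days, 1 at 4.5 months, 5 at 9 months, 1 at 14.5 months and 2 at 20 months, while the share of all genes was 5.66%, 6.74%, 18.1%, 0.944% and 4.85%. The median difference over members was 0.00, 0.04, -0.10, -0.09 and 0.09 in the order of age.

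**Figure D5:**
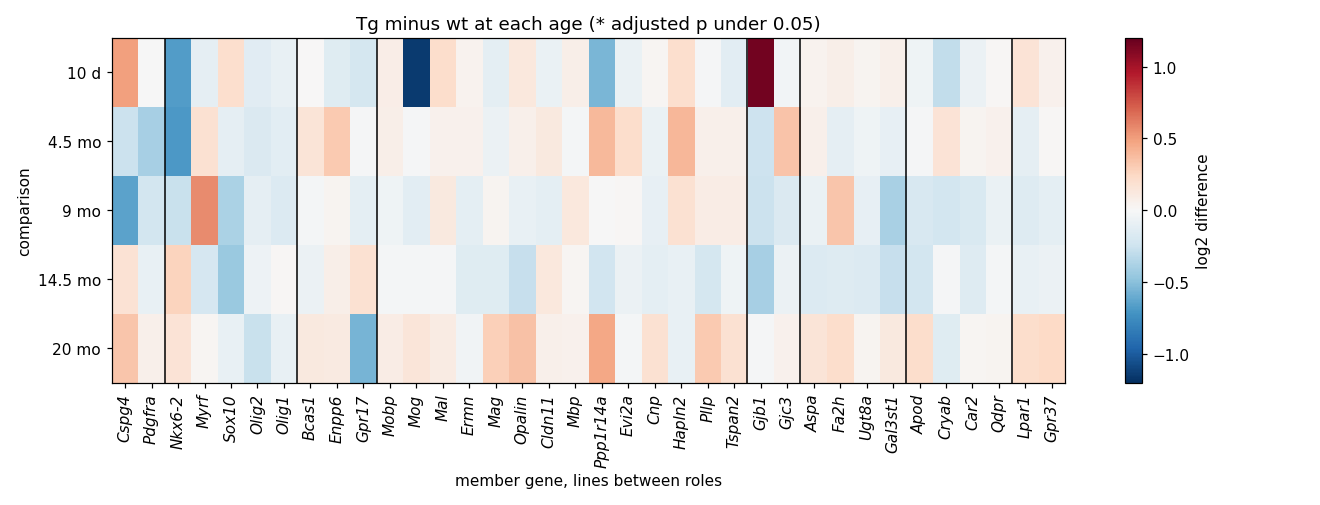
Log2 difference of Tg minus wt (colour scale) at each of the 5 ages for each of the 36 measured members, with black lines between roles; an asterisk would mark a called difference. No cell carries an asterisk, and the deepest colours, Gjb1 at 1.15 and Mog at -1.15 at 10 days, belong to genes whose signals were in the background at that age.

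An absence of calls does not show that the genotypes were alike. The 95% interval of the difference had a median half-width of 0.347 at 10 days and 0.371 at the other ages. It lay wholly within a 2-fold difference in 31 of 35 members at 10 days and at 9 months and in 32 of 35 at the other ages. Mog and Gjc3 were outside at each age, and Cspg4 and Gjb1 were the others at 9 months. The intervals use a spread pooled over all 10 groups, so noise near the background at 10 days widens those of Mog at later ages too. It lay within a 1.5-fold difference in 27, 25, 21, 23 and 21 members in the order of age.

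Cspg4 at 9 months came nearest to a call. Its signals were 248, 243 and 247 in wt and 191, 205 and 143 in Tg, a difference of -0.64 ± 0.19 (adjusted p = 0.0515), and every Tg mouse lay below every wt mouse. It was called without the first Tg mouse (adjusted p = 0.0459) or the second (adjusted p = 0.0333). Its other probe set gave -0.16. Myrf in the same mice was 1039, 725 and 585 in wt and 1069, 1083 and 1229 in Tg, a difference of 0.57 ± 0.19 (adjusted p = 0.096), again without overlap, and was called without the first wt mouse, at 0.80 (adjusted p = 0.0213). At 10 days the connexin Gjb1 was 5.11, 13.7, 5.59 and 7.51 in wt and 15.5, 28.2 and 12.1 in Tg, a difference of 1.15 ± 0.34 (adjusted p = 0.36). These signals are in the background and overlap, and its second probe set gave -0.61.

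Pdgfra at 4.5 months was 1414, 1632 and 1715 in wt and 1398, 1087 and 1194 in Tg, a difference of -0.39 ± 0.13 (adjusted p = 0.64). Sox10 at 14.5 months was 1211, 1067 and 1118 in wt and 833, 756 and 953 in Tg, a difference of -0.44 ± 0.18 (adjusted p = 1). Gpr17 at 20 months was 844, 772 and 688 in wt and 560.0, 506 and 514 in Tg, a difference of -0.55 ± 0.17 (adjusted p = 0.82). In all 3 genes no Tg mouse reached the lowest wt mouse.

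Groups that do not overlap were counted for all members. There were 0 at 10 days, 2 at 4.5 months, 3 at 9 months, 3 at 14.5 months and 10 at 20 months, where 6.05%, 10.7%, 14.3%, 10.3% and 12.2% of all genes did not overlap. The 10 at 20 months were Mag, Cnp, Opalin, Tspan2, Cryab, Gpr37, Gpr17, Ppp1r14a, Pllp and Lpar1, of which Cryab and Gpr17 were lower in Tg and the rest higher. Opalin was 660, 724 and 656 in wt and 858, 892 and 875 in Tg. Pllp was 855, 953 and 989 in wt and 1176, 1169 and 1143 in Tg, a difference of 0.32 ± 0.15. None of the 10 was called, and sheath genes shift together between mice of a group, so that such counts do not rest on independent genes. Among the other lists at 9 months, the progenitor gene Cacng4 was called at -0.71 (adjusted p = 0.0136), and the hippocampus and striatum markers Prox1, at 0.77, and Drd1, at -1.88, were called as well, whose part in the member differences was not tested.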

How the data were processed

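Total RNA of 31 mouse hippocampi was hybridised to Affymetrix Mouse Genome 430 2.0 arrays. The deposited table holds linear MAS5 signal intensity values, which the authors scaled per array (trimmed mean 500); per the labels MAS5 made them, with no version given in the sources used here, while the study's methods describe RMA for its own tests. Array medians ran from 91.43 to 140, and the number of arrays limits the precision. The wt group at 10 days has 4 arrays here, where the study's methods state the same number of mice for every group.

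Values were log2 transformed and quantile normalized over 31 arrays. Of 45037 mouse probe sets, 34945 named 1 gene, 932 several and 9160 none, and 26877 above their array median on at least 3 arrays were tested. A model of 10 group means was fitted in limma 3.58.1 (R 4.3.3) with eBayes, trend and robust, and Benjamini-Hochberg adjustment over all probe sets tested. Each gene is shown by its own probe set with the highest mean, which gave 12824 genes tested of 18193 measured. Age comparisons average Tg and wt. P-values rest on 1 estimate of spread per probe set, taken between mice within all 10 groups and moderated over probe sets. The groups compared do not set it alone. The fit was tested on simulated data.

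The members, the lists of other genes and the comparisons were chosen with earlier results of these data known. Named were the members called in a comparison (beyond 12, the 6 largest rises and falls and those against their role), those with extreme levels, those whose probe sets differ in sign, and up to 3 genes of each other list with the smallest p. A gene counted for its values outside this rule was chosen after they were seen. Alternatives were no quantile normalization, an offset of 50, no filter, a filter at the 60th percentile of the mean, plain moderation, the replicate number as a block, the median over probe sets, only the ages compared, a fold of 1.3 with adjusted p of 0.01, each genotype alone, and each mouse left out. Numbers shared by Tg and wt mice did not pair them: deviations of 15 same-numbered pairs correlated at -0.1428 to 0.09052, 0 of them over 0.1. Promoter letters were searched with Python 3.11.15.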

Additional observations from a re-analysis of the deposited data

Results flagged for a closer look

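In wt mice at 10 days, the only group with 4 mice, the second mouse stood apart in Mobp and Mag. Mobp gave signals of 117, 24.3, 138 and 127, and the gap of the second mouse to its neighbour was 0.895 of the range of log2 levels. For Mag the same mouse was lowest, with a gap of 0.835 of the range. Both exceed Dixon's 95% critical value for 4 samples, which chance exceeds in about 1 group in 20, and 2 of 36 members did so.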

How the results depend on the processing

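Over development 32 to 34 members were called with any mouse left out, against 34. Between 4.5 and 9 months the range was 16 to 18, between 9 and 14.5 months 13 to 18, between 14.5 and 20 months 10 to 13 and between 4.5 and 20 months 16 to 20. Between genotypes at 9 months it was 0 to 2, and at the other 4 ages, in the genotype difference over development and in the F-test of genotype by age it was 0 to 0. Leaving out a single mouse ended calls of Enpp6, Myrf and Pdgfra between 4.5 and 9 months, of Enpp6, Evi2a, Gjb1, Gjc3, Pllp and Ugt8a between 9 and 14.5 months, of Evi2a and Mag between 14.5 and 20 months, of Olig2 between 4.5 and 20 months, and of Cspg4 and Enpp6 over development. With a fold of 1.3 and adjusted p of 0.01, 11 members were called between 9 and 14.5 months, 3 up and 8 down, of the 17 reported. With 9 months in place of 4.5 months, 8 members were called up to 20 months, 4 up and 4 down, against 17. With only the ages compared in the fit, 18 members were called between 14.5 and 20 months, against 12. Between 4.5 and 20 months there were 21, against 17. The same setting gave 34 over development, 17 between 4.5 and 9 months and 16 between 9 and 14.5 months. The share of all genes called in these fits was not counted, so higher or lower counts are not read as particular to the members.

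At 9 months Tg against wt, 1 member was called, Cspg4, with the filter at the 60th percentile (adjusted p = 0.0478) and 1, Cspg4, with the replicate block (adjusted p = 0.0432). The replicate block gave 33 calls over development, 18, 19 and 13 between successive adult ages and 17 between 4.5 and 20 months, though the numbers do not pair the mice. The share of all genes called with the block was not counted. Without quantile normalization the counts were 32 over development, 17, 18 and 16 between successive adult ages and 18 between 4.5 and 20 months, with no change of sign among the members called.

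Signs turned in 10 cases. With the median over probe sets, Pdgfra between 4.5 and 9 months was 0.035, Cnp between 9 and 14.5 months was 0.34 and Lpar1 there was 0.024. In wt mice alone, Cspg4 over development was 0.061. From 9 to 20 months, in place of 4.5 to 20 months, Gal3st1 was -0.021, Olig1 -0.024, Olig2 0.028, Bcas1 -0.24, Gpr37 -0.20 and Lpar1 -0.079. The start age is the construction of the last group of differences, and for the others the cause was not tested. Signal over background limits Mog, Gjb1, Gjc3, Ermn and Hapln2 at 10 days and Enpp6 at the adult ages.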
